A study of Mus musculus with 9 samples.

Results

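Members of the interleukin-6 (IL-6) cytokine family and the signalling chain behind them were followed in mouse intestinal stem cells (ISCs), the cells at the base of the crypt that renew the gut epithelium. The set comprised 10 genes out of 46517 in the count tables, chosen by symbol: the ligand Lif, the receptor chains Lifr, Il6ra, Il6st, Osmr and Il11ra1, the kinase Jak1, the transcription factors Stat3 and Cebpd, and the feedback inhibitor Socs3. All 10 passed the filter on low counts, as did 14870 genes in all. The study grew dissociated ISCs for 4 days as colonies in a non-degradable polyethylene glycol (PEG) hydrogel, in a degradable PEG hydrogel or in Matrigel, a basement membrane extract of a mouse tumour. Polyadenylated RNA was sequenced from 3 libraries per matrix, 9 in all, and the design asks how the matrices differ. Cells in all 3 matrices received R-spondin, noggin, EGF, the GSK3 inhibitor CHIR99021 and valproic acid, and the labels list no added LIF or IL-6. The labels name no mouse strain, sex, age or genotype, and no adhesion ligand or stiffness of the gels. They also leave unsaid whether replicate libraries stem from different cultures or mice, so p-values measure the spread between these libraries, which may be technical.

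In this pathway, a cytokine binds its own receptor chain, which pairs with the shared chain encoded by Il6st. The receptor-bound kinase JAK1 then phosphorylates STAT3, which enters the nucleus and switches on genes that include Socs3 and Cebpd. SOCS3 binds the shared chain and JAK and shuts the signal down. LIF is best known for keeping mouse embryonic stem cells undifferentiated, and STAT3 in the gut epithelium is known for its part in repair after injury. Activation of STAT3 is a phosphorylation, which mRNA levels do not measure.

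The start regions of Lif and Socs3 are shown because these genes carried the clearest differences between matrices. RefSeq promoter windows on GRCm38.p6 reach from 250 bases before to 50 bases after an annotated start. Capitals mark an AP-1 element, TGANTCA, in the Lif window and a STAT element, TTCNNNGAA, in the Socs3 window. The Lif window is chr11:4257318-4257617 on the plus strand, and the Socs3 window is chr11:117969317-117969616 on the minus strand. The Socs3 window lies inside the gene as GENCODE M21 annotates it, so it belongs to the start of an inner transcript.
Lif: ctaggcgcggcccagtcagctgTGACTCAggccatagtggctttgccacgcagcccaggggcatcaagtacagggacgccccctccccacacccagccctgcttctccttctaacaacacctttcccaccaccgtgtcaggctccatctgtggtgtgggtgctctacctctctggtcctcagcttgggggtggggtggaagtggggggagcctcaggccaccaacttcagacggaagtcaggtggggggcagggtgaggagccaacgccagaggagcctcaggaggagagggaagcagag
Socs3: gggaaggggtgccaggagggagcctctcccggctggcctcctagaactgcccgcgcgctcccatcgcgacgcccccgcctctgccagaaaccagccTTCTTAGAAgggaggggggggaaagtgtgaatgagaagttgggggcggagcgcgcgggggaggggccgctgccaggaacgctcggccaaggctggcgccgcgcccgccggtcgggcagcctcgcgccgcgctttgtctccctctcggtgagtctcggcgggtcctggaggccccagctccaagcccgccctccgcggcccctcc

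The AP-1 element of Lif lay at bases -228 to -222 from the start, and the STAT element of Socs3 at -154 to -146. Windows were found for 9 of the 10 genes, 11 windows in all, and not for Cebpd. Among these 11, the STAT element was found in 1, the AP-1 element in 2 (Lif, and Osmr at bases 4 to 10) and the cyclic AMP element TGACGTCA in 1 (Jak1, at -101 to -94), counting both strands. Of all 32851 windows in the table, 8.3% held the STAT element, 7.81% the AP-1 element and 1.79% the cyclic AMP element. These matches describe letters in a window and do not show binding.

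Libraries held 38.0 M to 47.2 M reads assigned to genes, and values are counts per 1 M reads (CPM) after TMM scaling, edgeR's correction of library sizes for composition. A count of 3 reads corresponds to 0.0632 to 0.0793 CPM. The 7 epithelial markers summed to 5352 to 6425 CPM in non-degradable PEG, 5833 to 6584 CPM in degradable PEG and 5028 to 5318 CPM in Matrigel. The 4 crypt stem cell markers summed to 1319 to 1463 CPM in non-degradable PEG, 1546 to 1672 CPM in degradable PEG and 2132 to 2272 CPM in Matrigel, so the markers of the labelled cell type were present in every library. Most of that sum was Smoc2, which fell in both gels, while Ascl2 rose in both (1.69-fold in non-degradable and 1.89-fold in degradable PEG) and Lgr5 was not called. Olfm4 averaged 27.7 CPM in non-degradable PEG, 37.9 CPM in degradable PEG and 65.1 CPM in Matrigel, and was called lower in non-degradable PEG only. Of 8 mesenchymal markers, 4 (Col3a1, Dcn, Lum and Thy1) had 0 reads in all 9 libraries. The list summed to 7.24 to 8.62 CPM in non-degradable PEG, 5.29 to 9.43 CPM in degradable PEG and 5.07 to 8.32 CPM in Matrigel. Most of it came from Col1a1 (91 to 250 reads per library) and Pdgfra (62 to 141), and Pdgfrb had 24 to 48 reads. Of 8 blood cell markers, Ptprc, which marks all white blood cells, had 0 reads in all 9 libraries. The blood list summed to 10.2 to 12.9 CPM in non-degradable PEG, 13.5 to 14.7 CPM in degradable PEG and 6.84 to 7.75 CPM in Matrigel, most of it from Cd14, Itgam and Cd68. The 4 endothelial markers summed to at most 0.310 CPM in any library.

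Each PEG gel was compared with Matrigel to ask which steps of the pathway differ in a synthetic matrix. The ligand and the feedback inhibitor were higher in both gels, while the shared receptor chain and the kinase differed little. In non-degradable PEG against Matrigel, 2 of 10 genes rose (Lif and Socs3), 1 fell (Il6ra) and 7 did not pass the edgeR quasi-likelihood test at an adjusted p of 0.05 (Benjamini-Hochberg over all tested genes). That is 30% of the set, beside 16.8% of all tested genes (9.71% higher and 7.13% lower). The median log2 fold change of the set was 0.19, against -0.00 over all tested genes. In degradable PEG against Matrigel, 3 genes rose (Lif, Socs3 and Cebpd) and 0 fell, 30% beside 12.2% of all tested genes (7.42% higher and 4.79% lower), with a median log2 fold change of 0.18 against -0.02. At an unadjusted p under 0.05 the set held 6 and 5 genes in these comparisons, beside 32.6% and 27.3% of all tested genes. Both comparisons use the same 3 Matrigel libraries, so they are not independent of each other. A test over the 3 matrices together called 4 of 10 genes (Lif, Socs3, Cebpd and Il6ra), beside 16.3% of all tested genes.

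**Figure D1:**
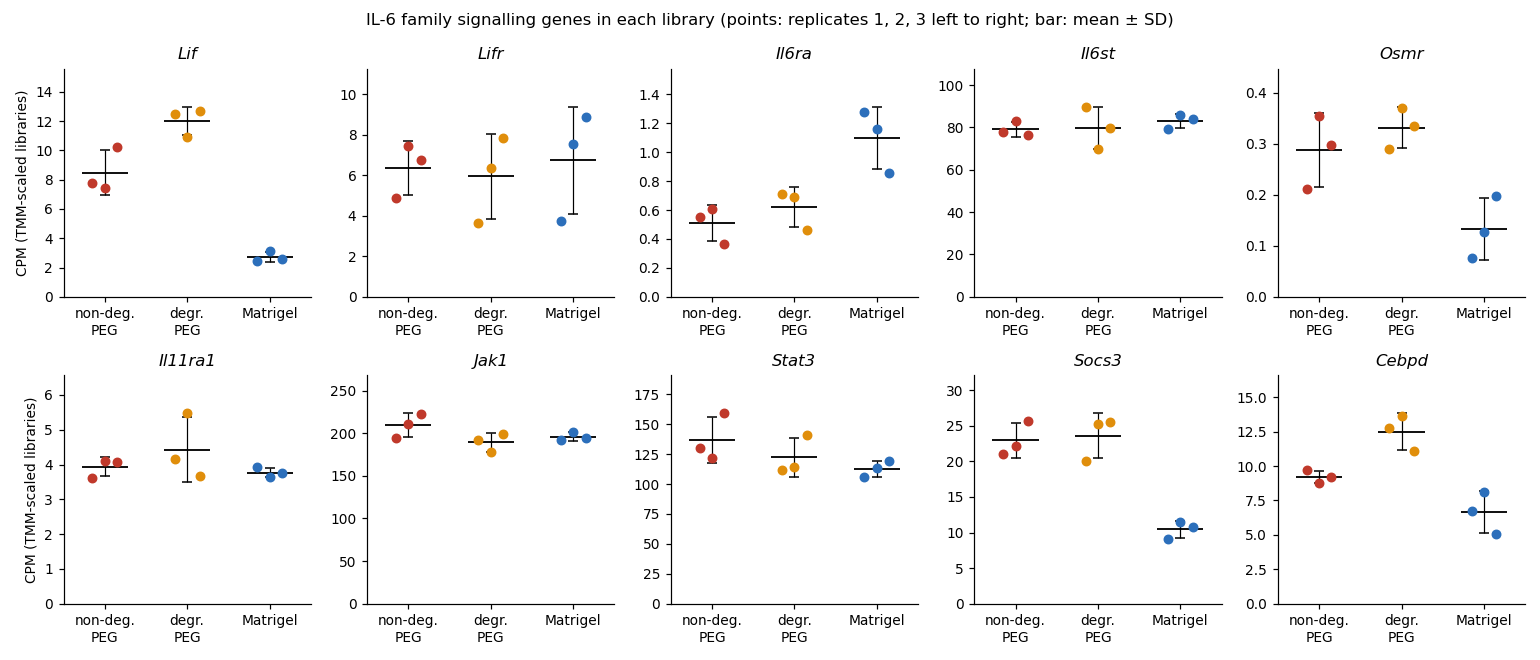
Level of each gene in CPM (vertical axes, each from 0) in the 3 libraries of each matrix. Points are libraries and bars the mean ± SD. The Lif and Socs3 points of both PEG gels lie above all Matrigel points, Il6ra points lie below them, and Il6st and Jak1 points mix.

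Lif, on chromosome 11 (GRCm38 4257557 to 4272514, plus strand), encodes leukaemia inhibitory factor, a secreted ligand. Its level was 7.77, 7.42 and 10.2 CPM in the 3 non-degradable PEG libraries, 12.5, 10.9 and 12.7 CPM in the degradable PEG libraries and 2.43, 3.12 and 2.60 CPM in the Matrigel libraries. Every PEG library was above every Matrigel library, and every degradable PEG library was above every non-degradable one. The level averaged 8.48 ± 1.54 CPM in non-degradable PEG and 2.72 ± 0.357 CPM in Matrigel (SD, n = 3 each), a 3.12-fold difference (95% interval 2.43 to 3.99). The log2 fold change was 1.64 ± 0.163 (SE), with an edgeR quasi-likelihood adjusted p of 1.60e-04. In degradable PEG the mean was 12.04 ± 0.962 CPM, 4.42 times that in Matrigel (3.45 to 5.67), a log2 fold change of 2.14 ± 0.163 with an adjusted p of 4.06e-05. Among all tested genes, 98.2% had a smaller log2 fold change than Lif in the non-degradable gel and 99.2% in the degradable gel. Behind these levels stood 292 to 447 reads per library in non-degradable PEG, 442 to 491 in degradable PEG and 95 to 148 in Matrigel. In bulk RNA, more cells that express Lif and more Lif RNA per cell cannot be told apart.

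The genes that respond within minutes to growth factors or stress were read beside these values. All 6 immediate early genes of a fixed list (Fos, Fosb, Egr1, Junb, Ier2 and Atf3) were higher in both gels. Their summed level was 2517, 1648 and 5497 CPM in the non-degradable PEG libraries, 3995, 3659 and 5246 CPM in the degradable PEG libraries and 126, 221 and 185 CPM in the Matrigel libraries. Within each PEG gel, replicate 3 had the highest and replicate 2 the lowest sum, as they had for Lif. For Socs3, replicate 3 was also the highest in each gel, but replicate 1 was the lowest. Cebpd was highest in replicate 1 of non-degradable PEG and in replicate 2 of degradable PEG. The part of immediate early expression in the Lif, Socs3 and Cebpd results was not tested. The labels do not state whether colonies were released from the gels and from Matrigel alike, so effects of the matrix and of harvest cannot be told apart in any comparison with Matrigel.

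Of the other ligands of the family, Clcf1 passed the test in both gels, though not firmly in the non-degradable one, and the rest were at or near the detection limit, or were not called. Il6 and Osm, which encode IL-6 and oncostatin M, had 0 reads in all 9 libraries, and Il27 had at most 1 read. Clcf1, a ligand of the ciliary neurotrophic factor receptor, had 1.03, 1.37 and 1.10 CPM in non-degradable PEG, 1.37, 1.51 and 1.52 CPM in degradable PEG and 0.512, 0.800 and 0.727 CPM in Matrigel. The groups did not overlap between either gel and Matrigel, and the log2 fold changes were 0.77 ± 0.230 (SE, adjusted p 0.0418) and 1.10 ± 0.227 (adjusted p 0.00948) for the non-degradable and the degradable gel. The call in the non-degradable gel was lost with DESeq2, with no filter, with only the compared matrices, and on leaving out replicate 1, 2 or 3 of Matrigel, replicate 1, 2 or 3 of non-degradable PEG, or replicate 3 of degradable PEG. Il11, the IL-11 ligand, ranged from 0.483 to 0.660 CPM in non-degradable PEG, 0.470 to 0.775 CPM in degradable PEG and 0.705 to 0.800 CPM in Matrigel and was not called. Ctf1, cardiotrophin, was not called either, at 1.73 to 2.91 CPM over all libraries, nor was Cntf, ciliary neurotrophic factor, at 0.264 to 0.491 CPM.

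Among the receptors, the shared chain Il6st (chromosome 13, 112464070 to 112510086, plus strand) was even across matrices. It had 77.7, 83.1 and 76.6 CPM in non-degradable PEG, 89.8, 69.6 and 79.7 CPM in degradable PEG and 79.2, 85.9 and 83.8 CPM in Matrigel. All groups overlapped. The 95% interval of the log2 fold change was -0.26 to 0.13 for the non-degradable gel and -0.25 to 0.14 for the degradable gel. Lifr (chromosome 15, 7090614 to 7197489, plus strand), the receptor chain that binds LIF, varied more between libraries than between matrices. It had 4.89, 7.44 and 6.78 CPM in non-degradable PEG, 3.66, 6.36 and 7.83 CPM in degradable PEG and 3.76, 7.56 and 8.90 CPM in Matrigel. Replicate 1 was the lowest in each matrix. The intervals of the log2 fold change, -0.79 to 0.63 and -0.90 to 0.53 for the non-degradable and degradable gels, were wide and hold changes as large as the 0.47 of Cebpd in the non-degradable gel.

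Il6ra (chromosome 3, 89864059 to 89913196, minus strand), the chain that binds IL-6, was the gene of the set that fell. It had 0.555, 0.610 and 0.367 CPM in non-degradable PEG, 0.710, 0.693 and 0.465 CPM in degradable PEG and 1.28, 1.16 and 0.859 CPM in Matrigel. All PEG libraries were below all Matrigel libraries, on 16 to 24 reads in non-degradable PEG, 18 to 28 in degradable PEG and 39 to 55 in Matrigel. The log2 fold change was -1.11 ± 0.280 (SE) in non-degradable PEG (edgeR adjusted p 0.0213) and -0.81 ± 0.273 in degradable PEG (adjusted p 0.0787). The call in non-degradable PEG was lost on leaving out Matrigel replicate 1 (adjusted p 0.0739), Matrigel replicate 2 (0.0672), non-degradable PEG replicate 1 (0.0519) or non-degradable PEG replicate 3 (0.0960). An antisense gene, Gm42809, shares 242 exon bases with Il6ra. The strand setting of the counting is not given, so reads of the 2 genes may be mixed.

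Osmr (chromosome 15, 6813577 to 6874969, minus strand), the oncostatin M receptor chain, was close to the detection limit. It had 8, 14 and 13 reads in the non-degradable gel, 11, 15 and 13 in the degradable gel and 3, 6 and 9 in Matrigel. As levels, these were 0.211 to 0.356 CPM, 0.289 to 0.371 CPM and 0.0768 to 0.198 CPM in the same order of matrices. Neither gel overlapped with Matrigel, but the log2 fold changes of 1.07 ± 0.392 (SE, adjusted p 0.0827) and 1.27 ± 0.385 (adjusted p 0.0546) did not pass. Il11ra1 (chromosome 4, 41699989 to 41769474, plus strand), the IL-11 receptor chain, had 3.62 to 4.12 CPM in non-degradable PEG, 3.67 to 5.47 CPM in degradable PEG and 3.64 to 3.92 CPM in Matrigel, with overlap throughout. Its log2 fold changes were 0.07 ± 0.168 and 0.24 ± 0.168 in the non-degradable and degradable gels. The near-identical copies Il11ra2 and Gm13305 were listed at 0 reads in all libraries, so the level of Il11ra1 is uncertain where reads fit several copies.

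The kinase Jak1 (chromosome 4, 101152367 to 101265282, minus strand) had 195, 211 and 223 CPM in non-degradable PEG, 192, 178 and 199 CPM in degradable PEG and 192, 202 and 194 CPM in Matrigel. The groups overlapped, and the intervals of the log2 fold change were -0.06 to 0.25 and -0.21 to 0.11 for the non-degradable and degradable gels. Stat3 (chromosome 11, 100885098 to 100939540, minus strand), the transcription factor the cascade activates, had 130, 122 and 159 CPM in non-degradable PEG, 111, 114 and 141 CPM in degradable PEG and 106, 113 and 119 CPM in Matrigel. Replicate 3 was the highest in each matrix. The non-degradable group lay above Matrigel without overlap and the degradable group did not, with log2 fold changes of 0.28 ± 0.114 (SE, adjusted p 0.110) and 0.12 ± 0.114 (adjusted p 0.551). Stat3 shares 72 exon bases with Stat5a on the opposite strand.

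**Figure D2:**
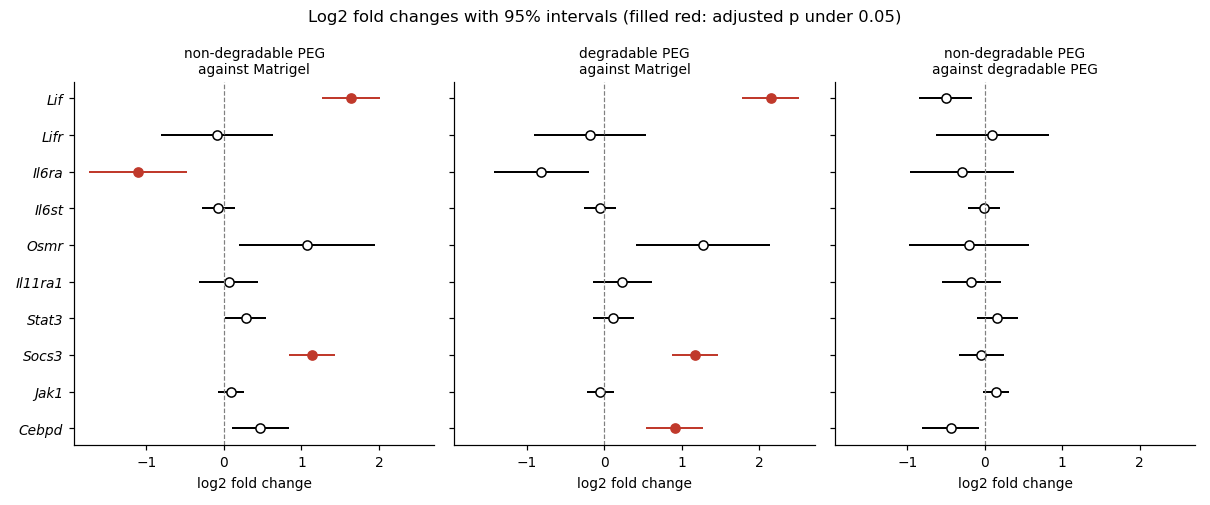
Log2 fold changes (horizontal axis) with 95% intervals for the 10 genes in the 3 comparisons, with filled red points for an adjusted p under 0.05. Lif and Socs3 are filled and right of 0 in both comparisons with Matrigel, Il6ra is filled and left of 0 in the non-degradable gel, and no gene is filled between the gels.

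Socs3, on chromosome 11 (117966079 to 117970047, minus strand), encodes the inhibitor that a STAT3 signal switches on. It had 21.0, 22.2 and 25.6 CPM in non-degradable PEG, 20.0, 25.3 and 25.6 CPM in degradable PEG and 9.09, 11.5 and 10.8 CPM in Matrigel. Every PEG library was above every Matrigel library, and the gels overlapped with each other. The mean was 22.9 ± 2.42 CPM in non-degradable PEG and 10.5 ± 1.23 CPM in Matrigel (SD, n = 3 each), a 2.19-fold difference (95% interval 1.80 to 2.67) and a log2 fold change of 1.13 ± 0.129 (SE, edgeR adjusted p 2.69e-04). In degradable PEG the mean was 23.6 ± 3.11 CPM, 2.26 times that in Matrigel (1.86 to 2.75), a log2 fold change of 1.17 ± 0.129 with an adjusted p of 2.50e-04.

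Cebpd (chromosome 16, 15887286 to 15891031, plus strand) encodes a transcription factor of the acute-phase response that STAT3 can induce. It had 9.70, 8.79 and 9.17 CPM in non-degradable PEG, 12.8, 13.7 and 11.1 CPM in degradable PEG and 6.71, 8.15 and 5.09 CPM in Matrigel. The 3 groups did not overlap and stood in the order degradable PEG, non-degradable PEG, Matrigel. In degradable PEG the log2 fold change was 0.91 ± 0.162 (SE, edgeR adjusted p 0.00404), a 1.88-fold difference. In non-degradable PEG it was 0.47 ± 0.163 and did not pass (adjusted p 0.0683). Cebpd shares 562 exon bases with Spidr on the opposite strand, and reads of these genes may be mixed.

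Libraries with the same replicate number deviated together in non-degradable PEG and Matrigel. With the replicate number as a block, 5 of the 10 genes passed in that comparison instead of 3. The added calls were Stat3, with a log2 fold change of 0.27 (adjusted p 0.0183), and Cebpd, with 0.49 (adjusted p 0.0248). In degradable PEG against Matrigel the block also gave 5 calls instead of 3, adding Il6ra (adjusted p 0.0210) and Osmr (0.0351). The share of all tested genes called with the block was not determined. The added calls therefore cannot be read as particular to the set. Counting genes whose groups did not overlap, the set held 5 higher and 1 lower gene in non-degradable PEG against Matrigel, beside 21.8% and 21.6% of all tested genes, 43.4% in either direction. In degradable PEG it held 4 higher and 1 lower gene, beside 15.6% and 14.8% of all tested genes, 30.4% in either direction.

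The PEG gels were then set against each other to ask whether these genes differed between them. The labels name no adhesion ligand or stiffness, so degradability and other differences between the gels cannot be told apart. No gene of the set passed the edgeR test (0 of 10, beside 1.28% of all tested genes, 0.814% higher and 0.464% lower), and 2 genes, Lif and Cebpd, had an unadjusted p under 0.05, beside 14.8% of all tested genes. For the same 2 genes the groups did not overlap, both lower in the non-degradable gel, beside 9.02% of all tested genes with that direction and 19% in either. Lif was lower in the non-degradable gel, with a log2 fold change of -0.50 ± 0.152 (SE, unadjusted p 0.00674, adjusted p 0.162). DESeq2 called 1 gene, Lif, at an adjusted p of 0.0472. The share of all tested genes that DESeq2 called between the gels was not determined. Cebpd was lower by a similar amount, -0.44 ± 0.160 (unadjusted p 0.0188, adjusted p 0.245). For Socs3 the log2 fold change was -0.04 ± 0.125, with a 95% interval of -0.32 to 0.23. The median log2 fold change of the set was -0.11, against 0.00 over all tested genes.

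Levels of different genes were compared as RPKM, the CPM per kilobase of merged exons. The signal chain was well expressed and most ligand-binding chains were scarce. Over the 9 libraries the mean was 27.5 ± 1.75 RPKM for Jak1, 13.0 ± 1.78 for Stat3, 7.26 ± 0.531 for Il6st, 6.57 ± 2.33 for Socs3, 2.52 ± 0.732 for Cebpd and 1.78 ± 0.961 for Lif (SD, n = 9). Below these stood Il11ra1 at 0.905 ± 0.128, Lifr at 0.590 ± 0.172, Il6ra at 0.0861 ± 0.0354 and Osmr at 0.0208 ± 0.00859 RPKM. The ranges of Jak1 and Stat3, of Stat3 and Il6st, of Lifr and Il6ra and of Il6ra and Osmr did not overlap over the 9 libraries, while those of the other neighbours in this order did. With the longest transcript as length, the ranges of Il6ra (0.0425 to 0.148 RPKM) and Osmr (0.0140 to 0.0676 RPKM) overlapped, and those of Il11ra1 and Lifr did not. The place of Lif and Socs3, the 2 genes that rose in both gels, depended on the matrix. Lif had 1.71 to 2.36 RPKM in non-degradable PEG, 2.51 to 2.92 in degradable PEG and 0.559 to 0.716 in Matrigel, where it was below Il11ra1 (0.815 to 0.876 RPKM). Socs3 had 7.27 to 8.87 RPKM in non-degradable PEG and 6.93 to 8.84 in degradable PEG, overlapping with the range of Il6st, and 3.14 to 3.98 in Matrigel, below the 7.14 to 7.74 RPKM of Il6st there. Per length, Il6st RNA was thus more abundant than that of the 4 other receptor chains in every library.

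**Figure D3:**
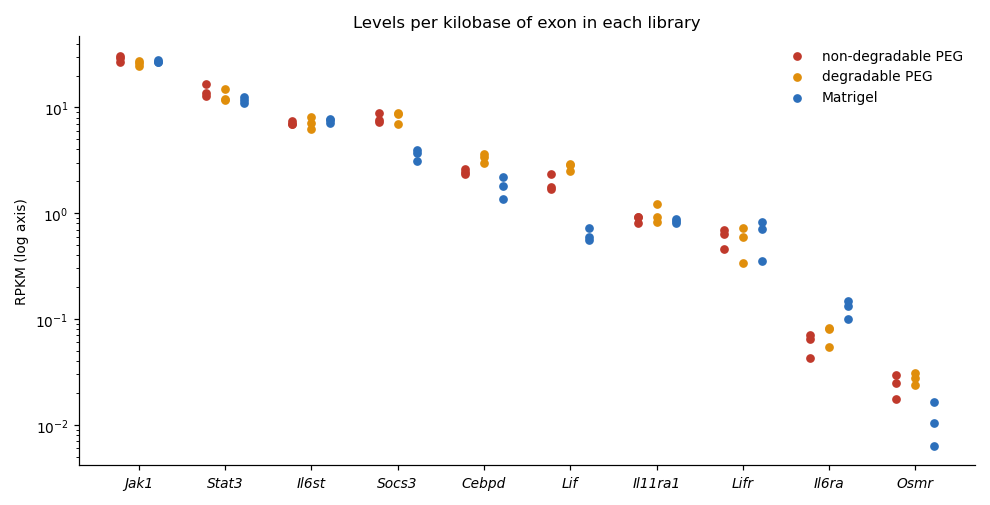
RPKM of each gene (logarithmic vertical axis) in every library, coloured by matrix and ordered by the mean over the 9 libraries. Jak1 leads at 27.5 RPKM and Osmr is last at 0.0208 RPKM, and the Lif and Socs3 points of Matrigel lie below those of both gels.

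The rest of the pathway was described by a list of 32 further genes, of which 25 were tested. In non-degradable PEG against Matrigel, 6 rose and 0 fell (24%, beside 16.8% of all tested genes), and the median log2 fold change of the list was 0.07. The interferon-activated factor Stat2 had 34.4, 33.4 and 38.9 CPM in non-degradable PEG, 29.1, 32.8 and 32.9 CPM in degradable PEG and 23.1, 24.1 and 23.2 CPM in Matrigel, with no overlap between either gel and Matrigel. Its log2 fold changes were 0.60 ± 0.0831 (SE, edgeR adjusted p 8.32e-04) and 0.43 ± 0.0832 (adjusted p 0.00668) for the non-degradable and degradable gels. Socs1, an inhibitor of JAK kinases, averaged 2.30 ± 0.473 CPM in non-degradable PEG, 2.51 ± 0.257 CPM in degradable PEG and 1.36 ± 0.101 CPM in Matrigel, with adjusted p-values of 0.0268 and 0.0156. Stat6, the factor that relays IL-4 signals, rose by 0.32 ± 0.0657 on the log2 scale in the non-degradable gel (adjusted p 0.00799). The kinases Tyk2 and Jak3 rose by 0.22 ± 0.0649 (adjusted p 0.0370) and 0.29 ± 0.0891 (adjusted p 0.0435), and the ligand Clcf1 was the last of the 6. In degradable PEG against Matrigel, 5 rose and 0 fell (20%, beside 12.2% of all tested genes), with a list median of -0.01. These were Stat2, Clcf1, Socs1, Stat6 (0.31 ± 0.0657, adjusted p 0.0103) and the inhibitor Cish (0.70 ± 0.179, adjusted p 0.0272). Between the gels 0 of 25 passed edgeR or DESeq2, and 2 had an unadjusted p under 0.05, beside 14.8% of all tested genes. The count of 6 depended on single libraries: it was 2 (Stat2 and Stat6) without Matrigel replicate 1, 2 or 3 or without non-degradable PEG replicate 1 or 3, and 3 without degradable PEG replicate 3. The count of 5 was 3 without degradable PEG replicate 3. Cntfr, Il27ra and Ebi3 had 1 to 12 reads per library and were not tested.

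Of 30 genes known as STAT3 targets in other cells, 19 were tested. Most of them also answer to other transcription factors. In non-degradable PEG against Matrigel, 9 rose and 1 fell (52.6%, beside 16.8% of all tested genes), and the list median was 0.40 on the log2 scale. In degradable PEG, 9 rose and 0 fell (47.4%, beside 12.2% of all tested genes), with a median of 0.47. Junb, an AP-1 subunit that is also on the immediate early list, had 208, 175 and 412 CPM in non-degradable PEG, 293, 359 and 424 CPM in degradable PEG and 24.1, 40.8 and 36.0 CPM in Matrigel. Its log2 fold changes were 2.97 ± 0.311 (SE, edgeR adjusted p 1.78e-04) and 3.41 ± 0.316 (adjusted p 1.32e-04) for the non-degradable and degradable gels. Bcl3, an NF-kB cofactor, had 25.0, 21.8 and 33.0 CPM in non-degradable PEG, 31.1, 41.9 and 38.6 CPM in degradable PEG and 9.12, 12.5 and 11.8 CPM in Matrigel. For both genes, every PEG library was above every Matrigel library, and the log2 fold changes of Bcl3 were 1.25 ± 0.172 and 1.73 ± 0.172 (adjusted p 7.77e-04 and 1.71e-04).

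The angiogenic factor Vegfa averaged 136 ± 6.16 CPM in non-degradable PEG, 110 ± 3.61 CPM in degradable PEG and 66.7 ± 10.5 CPM in Matrigel (SD, n = 3 each). Its log2 fold changes were 1.03 ± 0.101 and 0.72 ± 0.101 (adjusted p 1.54e-04 and 0.00114). The growth regulator Myc averaged 271 ± 52.0 CPM in non-degradable PEG, 336 ± 56.5 CPM in degradable PEG and 127 ± 6.51 CPM in Matrigel, with adjusted p-values of 6.04e-04 and 2.12e-04. Gadd45g, a stress-response gene, rose by 1.37 ± 0.152 in the non-degradable gel and 1.44 ± 0.152 in the degradable gel on the log2 scale. The kinase gene Pim3 rose by 0.57 ± 0.0800 and 0.77 ± 0.0800. Pim1 and Ccnd1 were called in both comparisons, Il4ra in the non-degradable gel and Icam1 in the degradable gel. Ccnd1 lost both calls without Matrigel replicate 1 or 3, and Pim1 that in non-degradable PEG without replicate 3 of that gel. Il4ra lost its call without Matrigel replicate 1 or 2 or non-degradable PEG replicate 1 or 3. In degradable PEG, Il4ra was called with DESeq2, upper-quartile scaling, no filter and the replicate block. It was also called there without degradable PEG replicate 1 or without non-degradable PEG replicate 3. With the replicate block, Icam1 was also called in the non-degradable gel, which made 11 targets there, as it was with DESeq2 and with no filter. In degradable PEG the block called 13 targets, adding Bcl6, Birc5, Il4ra and Muc1. Birc5, which encodes the mitotic protein survivin, fell to 70.0 ± 7.64 CPM in non-degradable PEG, against 96.8 ± 6.41 CPM in Matrigel. In degradable PEG it averaged 82.5 ± 8.96 CPM and was called with the replicate block only. Between the gels 0 of 19 passed edgeR or DESeq2, and 6 had an unadjusted p under 0.05, beside 14.8% of all tested genes.

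The targets that encode proteins of the acute phase or of mucosal defence were mostly at or near 0 reads, or were abundant and not called. Fga, Fgg, Saa1 and Saa2 had 0 reads in all 9 libraries, and Fgb, Lrg1, Hp and Lcn2 had at most 2. Saa3, Timp1 and Steap4 had at most 13 reads and were not tested. The antimicrobial lectin genes Reg3b and Reg3g were abundant, at 106 to 156 CPM and 142 to 183 CPM in non-degradable PEG, 123 to 169 CPM and 158 to 186 CPM in degradable PEG and 79.8 to 150 CPM and 119 to 184 CPM in Matrigel. The groups overlapped and neither was called, but Reg3g was called in degradable PEG on leaving out Matrigel replicate 1. Muc1, a membrane mucin, was scarce and uneven, with 11, 9 and 32 reads in the non-degradable gel, 12, 40 and 66 in the degradable gel and 3, 27 and 10 in Matrigel. Its log2 fold change in degradable PEG was 1.75 ± 0.677 (SE, edgeR adjusted p 0.122), and it was called there with the replicate block, with no filter and without degradable PEG replicate 1. The STAT element was found in 7 of the 32 promoter windows of 27 listed targets, which belong to Bcl6, Reg3b, Icam1, Fga, Fgb and Steap4. Among these, Icam1 was called in degradable PEG in the main model. Bcl6 was not, at 36.7 to 41.9 CPM in degradable PEG and 30.8 to 33.9 CPM in Matrigel, without overlap. Bcl6 was called in that gel with DESeq2, upper-quartile scaling, the replicate block and only the compared matrices. It was also called there without degradable PEG replicate 1 or without non-degradable PEG replicate 3.

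**Figure D4:**
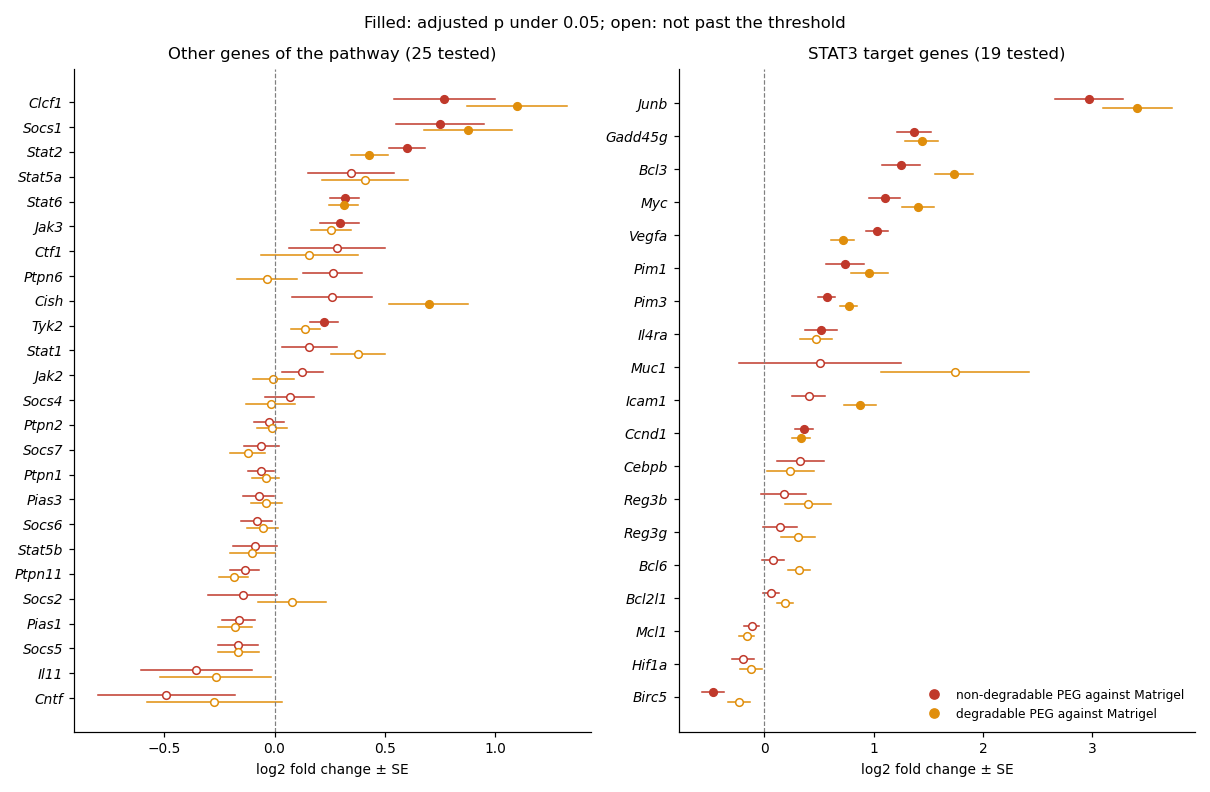
Log2 fold change ± SE (horizontal axis) of the tested genes of both lists in non-degradable (red) and degradable PEG (orange) against Matrigel, filled where the adjusted p was under 0.05. Filled points lie right of 0 except Birc5, and Junb is farthest right at 2.97 and 3.41.

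The genes most like Lif and Socs3 were found by the Pearson correlation of log2 CPM over the 9 libraries among 10648 genes that averaged 5 CPM or more. This is a description, since the 9 points form 3 matrices and the libraries share their matrix. Closest to Lif were Ccn1 (r = 0.996), a secreted matrix-associated protein, Zfp36l1 (0.994), an RNA-binding decay factor, Egr2 (0.992), a zinc-finger transcription factor, Dusp6 (0.991), a phosphatase of ERK, and Fosb (0.989), an AP-1 subunit. Their mean levels were, for Ccn1, 165 CPM in non-degradable PEG, 382 CPM in degradable PEG and 15.1 CPM in Matrigel. For Dusp6 they were 49.0, 63.8 and 8.03 CPM in the same order, and for Zfp36l1 278, 333 and 133 CPM. Closest to Socs3 were Id3 (0.994) and Id1 (0.987), inhibitors of helix-loop-helix factors, Adm (0.993), which encodes adrenomedullin, Ass1 (0.988), an enzyme of arginine synthesis, and Txnip (0.987), a thioredoxin-binding protein. Id3 averaged 25.1 CPM in non-degradable PEG, 27.8 CPM in degradable PEG and 4.98 CPM in Matrigel, and Adm 24.5, 29.5 and 3.66 CPM in the same order. All 10 genes were higher in every PEG library than in any Matrigel library, which choosing them by likeness to Lif and Socs3 made likely in advance. The correlation of Lif with Socs3 was 0.956.

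**Figure D5:**
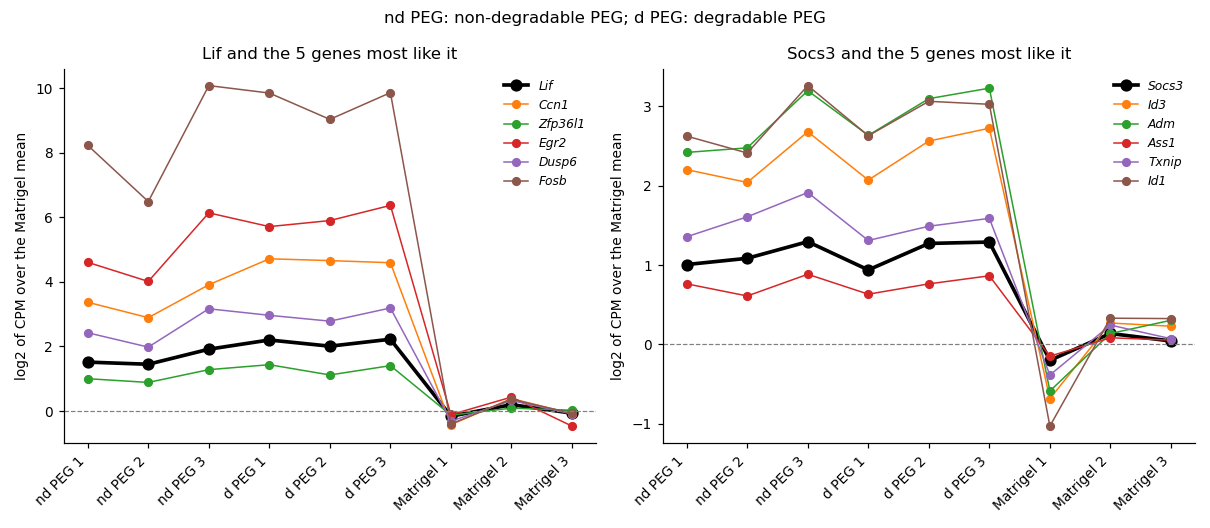
Log2 of the level in each library over the Matrigel mean (vertical axis) for Lif, left, and Socs3, right, in black, each with the 5 genes most like it. All lines are higher in the 6 PEG libraries than in Matrigel, where Id1 falls to -1.03 in replicate 1. Heights on this log2 axis are unequal: Lif reaches 2.22 while Fosb reaches 10.1.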

How the data were processed

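The authors deposited 1 table of gene counts per library. Per the submitters' processing notes, cutadapt 1.3, STAR 2.4.2a, HTSeq 0.6.1 and the build GRCm38 were used. Per the labels' protocols, extraction used the RNeasy Micro kit and library preparation the TruSeq Stranded mRNA kit. Neither the annotation nor the strand setting of counting is given in the sources used here.

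The 5 tally rows were taken out. Symbols, coordinates and exon lengths came from GENCODE M21 and matched 46005 of 46517 genes. The edgeR function filterByExpr kept 14870 genes. Libraries (38.0 M to 47.2 M assigned reads) were scaled by TMM. All comparisons came from a single edgeR quasi-likelihood model, with the 9 libraries and a mean for each matrix (6 residual and a median of 5.17 prior degrees of freedom, biological coefficient of variation 11.0%). P-values were adjusted by Benjamini-Hochberg over all tested genes, and an adjusted p under 0.05 was called. Intervals are at 95% and cover the spread between libraries. Tools were R 4.3.3, edgeR 4.0.16 and DESeq2 1.42.0. The test was tried on simulated data.

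The genes of the set and the lists were chosen with earlier results of these data known, and 1 gene of the pathway list is not reported here. From the lists, the 6 called genes with the smallest p and a mean of at least 1 CPM are named per comparison, and further list genes are named as examples after their values were seen. Same-numbered libraries of non-degradable PEG and Matrigel had correlated deviations from their matrix means (r 0.176 to 0.331, over genes). The main model left the replicate number out, so its calls take no account of such pairing. A block by replicate number was run as an alternative, and its calls are given where they differ for the set. The labels do not say what the number marks. Alternatives were other scalings, no filter, DESeq2, only the compared matrices, the replicate block and each library left out in turn.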

Additional observations from a re-analysis of the deposited data

How the results depend on the processing

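Lif and Socs3 kept their calls against Matrigel under all 15 alternatives, with adjusted p-values of at most 0.00136 and 0.00187 in non-degradable PEG and 4.38e-04 and 0.00215 in degradable PEG, and Cebpd kept its call in degradable PEG (at most 0.0199). Over the 30 log2 fold changes of the set, 423 of 449 alternative values kept direction and side of the threshold. Il6ra in non-degradable PEG lost its call in 4, all with a library left out. Calls were gained in 8. One of these was Osmr in degradable PEG with upper-quartile scaling (adjusted p 0.04998). Others were Cebpd in non-degradable PEG with DESeq2 (0.0290) and without Matrigel replicate 2 (0.0296), and Lif between the gels with DESeq2, which raised that count to 1. Osmr could not be tested in non-degradable PEG with only the compared matrices, as it failed the filter there.

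Against Matrigel, the replicate block gave 5 called genes of the set in each gel. The share of all tested genes called was not determined for the block or any other alternative. Deviations of same-numbered libraries of degradable PEG and Matrigel correlated by 0.0712 to 0.258, above the -0.238 to 0.0392 of different-numbered ones. Between the gels these ranges overlapped, at 0.0197 to 0.511 and -0.454 to 0.257. In degradable PEG the block added Il6ra (adjusted p 0.0210) and Osmr (0.0351) against Matrigel. It called 1 STAT3 target between the gels (Icam1). No other call of the set changed in degradable PEG.

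Without a filter, 3 of the other pathway genes passed in non-degradable PEG and 2 STAT3 targets between the gels. Leaving out 1 library gave 2 to 6 pathway genes in non-degradable PEG and 3 to 6 in degradable PEG. Values that changed sign were all small, uncalled and from leaving out 1 library. Lifr ranged from -0.37 to 0.16 in non-degradable PEG against Matrigel (3 such values), from -0.46 to 0.0710 in degradable PEG against Matrigel (2) and from -0.16 to 0.35 between the gels (2). Il6st ranged from -0.15 to 0.0315 in degradable PEG against Matrigel (1) and from -0.10 to 0.0780 between the gels (2). Between the gels, Il11ra1 ranged from -0.29 to 0.00413 (1) and Socs3 from -0.15 to 0.0193 (3). The cause was not tested.

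With the longest transcript as length, mean levels were 40.4 RPKM for Jak1, 20.5 for Stat3, 9.29 for Il6st, 1.55 for Il11ra1 and 0.0458 for Osmr. The order of means was the same, but the ranges of Il6ra and Osmr then overlapped. Depth limits Osmr (3 to 15 reads) and Il6ra (16 to 55 reads).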
